A study of Rattus norvegicus with 12 samples.

Results

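The genes that mark B cells and plasma cells were followed in whole rat kidneys under 2 models of chronic kidney injury. The 9 genes were listed by symbol, with earlier results of these data known. They were 6 genes of B cells (Cd79a, Cd79b, Ms4a1, Cd22, Blk and Pax5) and 3 of antibody-secreting cells (Jchain, Mzb1 and Pou2af1). All 9 were found among the 22132 entries of the control and adenine table, and 8 were found among the 32623 entries of the sham and UUO table, which has no row named Cd79a.

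The kidneys came from wild-type male Sprague-Dawley rats that were 8 weeks old when purchased, in 4 groups of 3 rats. The adenine group received adenine by gavage at 220 mg per kg body weight per day for 3 weeks, and its control group received saline. The UUO group, labelled UUO2W, had unilateral ureteral obstruction, in which the left ureter was tied off so that urine could not leave that kidney, and was killed 2 weeks after surgery. The sham group had the ureter handled without a ligature for the same time. The rats sequenced were 3 of 10 in each group, every library came from a separate rat, and no transgene or deletion was carried by any group. The labels give the tissue as kidney, without naming the region or, for sham rats, the side.

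B cells recognise antigen through a surface antibody held in a complex with CD79A and CD79B, whose cytoplasmic tails carry the signal into the cell. On activation some of these cells become plasma cells, which switch off much of the B cell programme and turn to folding and secreting antibody. A healthy kidney holds few of either cell, and both can gather in the interstitium of chronically injured kidneys, at times in lymphoid aggregates near vessels.

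Expression was given as FPKM, fragment counts scaled to transcript length and library size, which lets levels of different genes be set side by side within a table. The tables were made separately, so each change was computed within its own table. A gene was tested where it reached 0.5 FPKM in at least 3 of the 6 libraries (a gene that did not is called under the minimum here), and a differentially expressed gene (DEG) had a limma adjusted p under 0.05 and a log2 fold change of at least 2 in size on log2(FPKM + 0.1). With 3 rats against 3, an exact two-sided permutation test of a single gene cannot give a p below 0.1, so calls rest on the fit across all genes.

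The tissue label held in all 12 libraries. The 10 kidney epithelial markers summed to between 2287 and 4228 FPKM in control and sham kidneys and to between 434.9 and 659.3 FPKM after injury. The macrophage markers summed to 50.5 to 68.9 FPKM in control and sham kidneys, 1152 to 1602 FPKM in adenine kidneys and 667.5 to 1067 FPKM in UUO kidneys. The T cell markers summed to at most 28.2 FPKM in control and sham kidneys, to between 47.4 and 86.0 FPKM in adenine kidneys and to between 124.9 and 223.9 FPKM in UUO kidneys. Thy1 weighed most in these sums, with means of 12.6 FPKM in control, 27.7 in adenine, 13.5 in sham and 48.9 in UUO kidneys. The means of Cd3e were 0.91, 4.88, 1.35 and 15.9 FPKM in the same order. The part of cells other than T cells in the Thy1 values was not tested. Control rat 2 was low in some epithelial genes, with Slc5a2 at 0.23 FPKM and Nphs1 at 2.38 FPKM. It was not low in others, with the highest Slc12a1 of the control rats (229.0 FPKM) and Aqp2 between theirs (68.5 FPKM). The total of all FPKM was lower in both injured groups than in their references, and the median change of all tested genes (log2) was 0.30 with adenine and 0.62 with UUO. In bulk tissue, a change in the number of cells of a type and a change in RNA per cell cannot be told apart.

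B cell genes were low in uninjured kidneys. The 6 B cell genes together summed to between 0.85 and 1.96 FPKM in control kidneys, and the 5 listed summed to between 0.47 and 0.87 FPKM in sham kidneys. After adenine the sum was between 3.29 and 5.19 FPKM, and after UUO the sum of 5 was between 5.65 and 10.3 FPKM. Jchain had the highest mean of all members in each of the 4 groups, and Pax5 had the lowest in each. Jchain overlapped with Mzb1 in control and sham rats, whereas after injury its lowest rat (15.7 and 18.8 FPKM) was far above the highest value of any other member. Cd22, Cd79a, Pou2af1, Mzb1 and Cd79b had adenine means between 0.80 and 1.49 FPKM with values that overlapped from each gene to the next. Ms4a1 and Blk had nearly equal means there, 0.274 and 0.272 FPKM. After UUO the order of means below Jchain was Cd22 (2.74 FPKM), Cd79b (2.39), Pou2af1 (2.18), Ms4a1 (1.64), Blk (1.203) and Mzb1 (1.09), and each of these again overlapped with its neighbour. In control and sham kidneys Mzb1 and Pou2af1 followed Jchain, and Blk, Ms4a1 and Pax5 had the 3 lowest means of each.

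**Figure D1:**
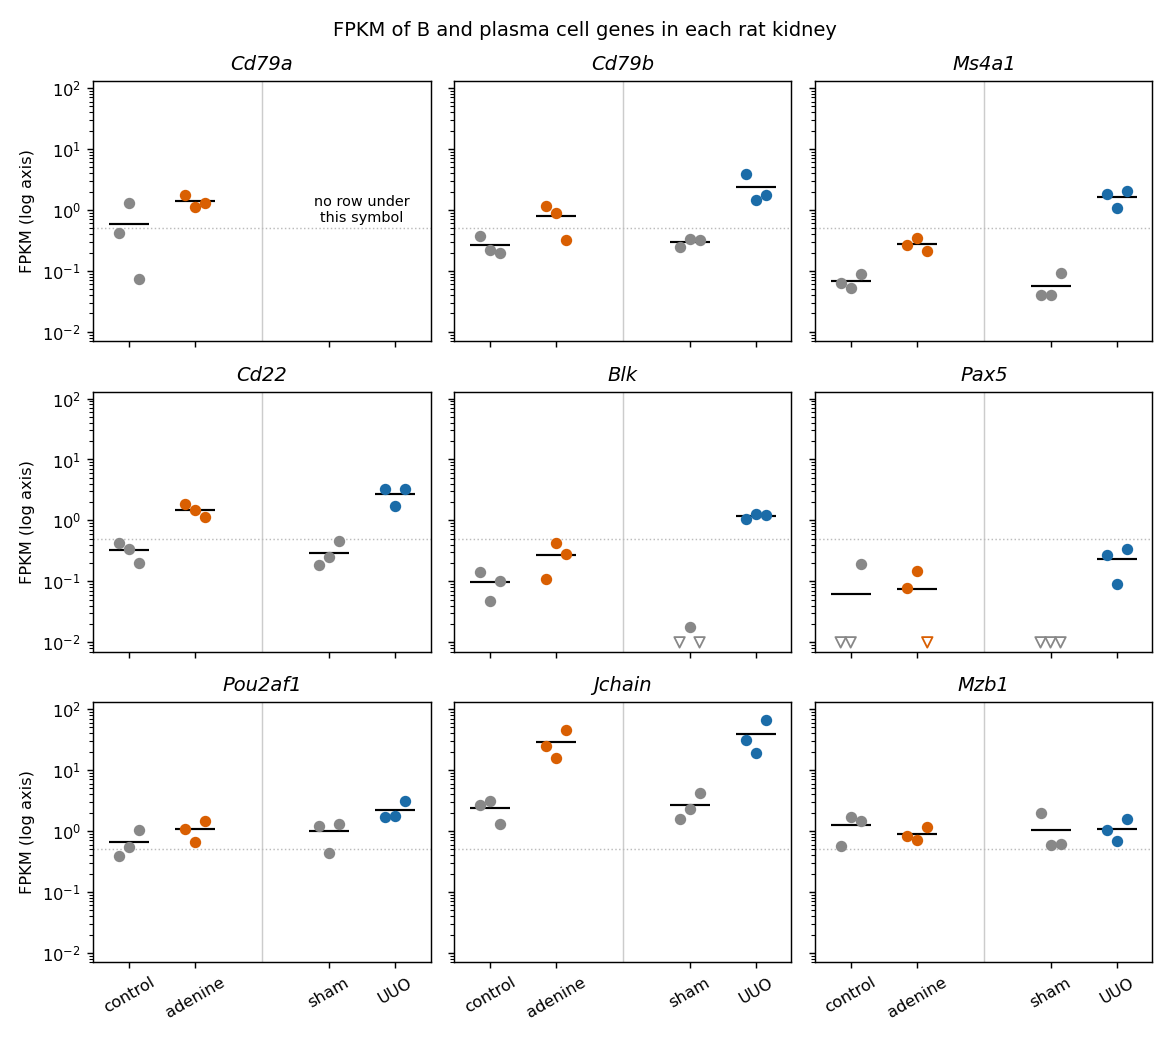
FPKM of each of the 9 genes in every rat, on a log axis, with 1 point per rat and a black line at the group mean. Triangles at the bottom are values under 0.01 FPKM and the dotted line is the minimum of 0.5 FPKM, with no mean drawn under 0.01 FPKM. Jchain sits highest after both injuries, Blk and Ms4a1 are above 1 FPKM only in UUO rats, and Mzb1 overlaps between the groups in both models.

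The adenine model yielded 1 DEG among the 9 genes, Jchain. Of all 15029 genes tested there, 10.7% were upregulated DEGs. Upregulated genes were 1604 of all 2360 DEGs, and 1311 of 2268 after median-of-ratios scaling, which centres the changes of all genes near 0. The count of DEGs among the members became 2, with Cd22 added, at a pseudocount of 0.01. Only 5 of the 9 reached the minimum FPKM (Cd79a, Cd22, Jchain, Mzb1 and Pou2af1), and Cd22 reached it through the adenine rats alone. In 3 of the 9 genes (Ms4a1, Cd22 and Jchain) every adenine rat was above every control rat, which was true of 35.7% of all 22132 entries.

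UUO kidneys had 5 DEGs among the 8 listed genes, all of them upregulated: Blk, Jchain, Ms4a1, Cd22 and Cd79b. Upregulated DEGs made up 13.2% of the 15043 genes tested, and were 1980 of all 2613 DEGs, or 1248 of 2203 after median-of-ratios scaling. The members' count was 1 (Jchain) with a pseudocount of 1, where upregulated DEGs over all genes also fell, to 1038 of 15043. It was 3 (Blk, Jchain and Ms4a1) with quantile normalization, for which the count over all genes is not reported here. All but Pax5 reached the minimum FPKM, and 4 of those 7 (Blk, Ms4a1, Cd22 and Cd79b) did so through the UUO rats alone, so that a gene like these had to differ to be tested. A fit without the minimum, over all 32623 entries, called the same 5 genes, against 6.14% of all entries, and such a fit of the adenine table called only Jchain of the 9, against 8.05%. Every UUO rat was above every sham rat in 7 of the 8 genes, against 31.1% of all entries, and Mzb1 was the exception.

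**Figure D2:**
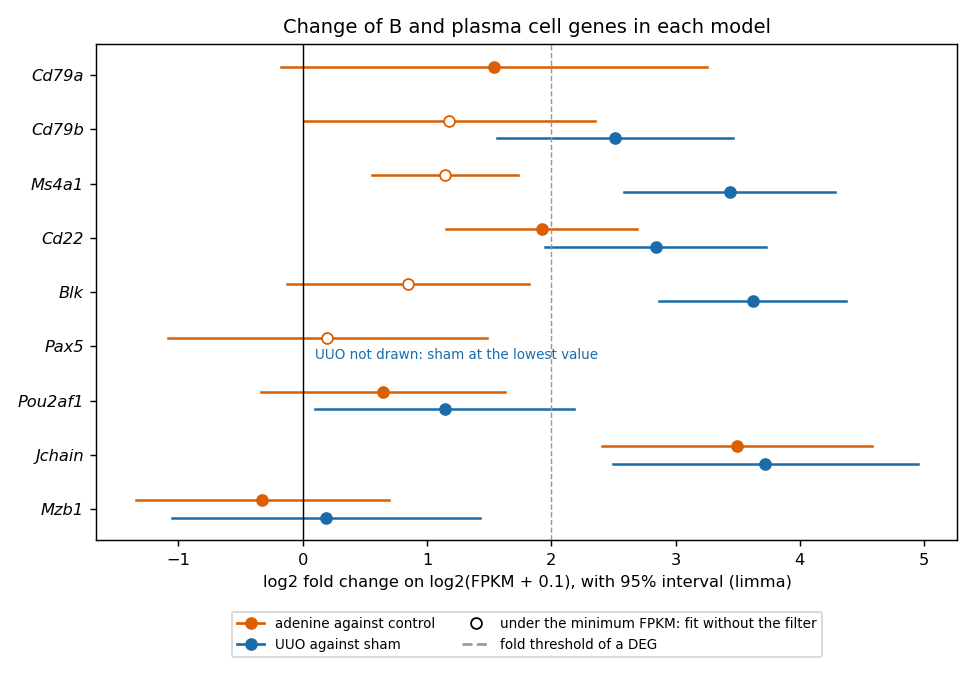
log2 fold change of each gene with its 95% interval from limma, adenine against control in orange and UUO against sham in blue. Open points are genes under the minimum FPKM, taken from the fit without it, no UUO change is drawn for Pax5, and the dashed line is the fold threshold of 2. Jchain lies beyond the line in both models, and the points of Cd79b, Ms4a1, Cd22 and Blk lie beyond it for UUO and short of it for adenine.

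The signalling subunits of the B cell receptor came first. Cd79a, which forms the signalling dimer with Cd79b, was at 0.42, 1.298 and 0.074 FPKM in the 3 control rats and 1.73, 1.10 and 1.32 FPKM in the 3 adenine rats. The groups overlapped, because control rat 2 lay above adenine rat 2. The log2 fold change was 1.54 (limma SE 0.72, adjusted p = 0.105). Control rat 2 is the library with low Slc5a2 and Nphs1, and without it Cd79a had a log2 fold change of 2.28 and was a DEG. Without control rat 3, which had the least Cd79a, the value was 0.77 and no DEG.

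A second entry, Cd79al, is listed in RefSeq (GRCr8) as a synonym of Cd79a and has a row in both tables. It was added after its values were seen, and reads of 1 gene may be divided between the 2 entries. Cd79al was at 0.45, 0.35 and 0.043 FPKM in control kidneys and 0.79, 0.44 and 0.65 FPKM in adenine kidneys, with overlap. Sham kidneys had 0.13, 0.0001 (the lowest value in that table) and 0.30 FPKM of it, and UUO kidneys had 1.64, 0.88 and 1.18 FPKM. The UUO rats were all above the sham rats, with a log2 fold change of 2.62 (limma SE 0.56, adjusted p = 0.00491). This entry too reached the minimum through the UUO rats alone, and without the minimum its limma adjusted p was 0.0373. The sum of the Cd79a and Cd79al entries gave a log2 ratio of adenine to control means of 1.19.

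Cd79b was at 0.38, 0.22 and 0.20 FPKM in control kidneys and 1.16, 0.90 and 0.32 FPKM in adenine kidneys. Adenine rat 3 fell within the control range, and the gene was under the minimum. Without the minimum its log2 fold change was 1.18 (limma adjusted p = 0.0980). Sham kidneys had 0.24, 0.34 and 0.32 FPKM of Cd79b, and UUO kidneys had 3.94, 1.44 and 1.78 FPKM. No UUO rat came near the sham range, and the log2 fold change was 2.51 (limma SE 0.40, adjusted p = 0.00132). UUO rat 1 had both the highest Cd79b and the highest erythroid marker sum (2086 FPKM, against 299.0 and 606.3 FPKM in the other UUO rats). Without that rat Cd79b was still a DEG at 2.10, and with median-of-ratios scaling it was 1.99 and no DEG.

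Next came 2 surface molecules of mature B cells. Ms4a1, which encodes CD20, was at 0.064, 0.052 and 0.088 FPKM in control kidneys and 0.26, 0.35 and 0.21 FPKM in adenine kidneys. All adenine rats were higher, although every value was under the minimum. The fit without the minimum gave a log2 fold change of 1.14 (limma SE 0.24, adjusted p = 0.0103), below the fold threshold, and the ratio of mean FPKM was 4.02. Sham kidneys had 0.041, 0.040 and 0.092 FPKM of Ms4a1 and UUO kidneys had 1.81, 1.08 and 2.03 FPKM. These groups were far apart, with a log2 fold change of 3.44 (limma SE 0.36, adjusted p = 0.000199) and a ratio of means of 28.5.

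Cd22 encodes a sialic acid-binding receptor that restrains signalling by the B cell receptor. Its FPKM was 0.43, 0.34 and 0.20 in control rats and 1.85, 1.46 and 1.15 in adenine rats. The groups did not overlap. The log2 fold change of 1.92 (limma SE 0.32, adjusted p = 0.00236) stopped just short of the fold threshold. Cd22 was at 0.19, 0.25 and 0.45 FPKM in sham kidneys and 3.23, 1.74 and 3.24 FPKM in UUO kidneys. UUO rat 2 had the lowest of the UUO values and was still well above all sham rats, and the log2 fold change was 2.84 (limma SE 0.37, adjusted p = 0.000558).

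Blk, a Src family kinase that acts downstream of the B cell receptor, was at 0.14, 0.047 and 0.10 FPKM in control rats and 0.11, 0.42 and 0.29 FPKM in adenine rats. Adenine rat 1 lay within the control range. The fit without the minimum gave a log2 fold change of 0.84 (limma adjusted p = 0.142). In sham rats Blk was listed at the lowest value, 0.0001 FPKM, in 2 libraries and at 0.018 FPKM in the other, and UUO rats had 1.07, 1.2998 and 1.24 FPKM. The UUO rats were close to each other and far from the sham rats. The log2 fold change was 3.62 (limma SE 0.32, adjusted p = 0.0001004), a size that the pseudocount sets in part, since it was 1.13 with a pseudocount of 1 and 7.67 with 0.01.

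Pax5, the transcription factor that holds cells in the B cell lineage, was the least detected member. Control rats 1 and 2 were listed at 0 and control rat 3 at 0.19 FPKM, and adenine rats were at 0.077, 0.15 and 0 FPKM. Those values overlapped completely. All 3 sham rats were listed at the lowest value of 0.0001 FPKM, and UUO rats had 0.27, 0.090 and 0.34 FPKM. Every UUO rat was above the sham rats, but no fold change is given against a group listed at the lowest value. Pax5 was under the minimum in both models.

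Pou2af1 encodes a coactivator that joins octamer-binding factors at antibody gene promoters and is needed in both B cells and plasma cells. It was at 0.40, 0.55 and 1.04 FPKM in control rats and 1.09, 0.67 and 1.44 FPKM in adenine rats, with overlap. The log2 fold change was 0.65 (limma adjusted p = 0.213). The sham rats had 1.19, 0.44 and 1.33 FPKM and the UUO rats 1.72, 1.76 and 3.07 FPKM. All UUO rats were higher than all sham rats, yet the log2 fold change of 1.14 (SE 0.44) had a limma adjusted p of 0.0505 and did not pass.

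Jchain, which encodes the joining chain that links IgM and IgA into polymers for transport across epithelia, was the member with the highest level after injury. Control rats had 2.69, 3.06 and 1.29 FPKM, and adenine rats had 24.6, 15.7 and 44.8 FPKM. The lowest adenine rat was above the highest control rat by a wide margin. The log2 fold change was 3.49 (limma SE 0.46, adjusted p = 0.000809). Jchain was at 1.58, 2.28 and 4.14 FPKM in sham kidneys and 30.8, 18.8 and 66.6 FPKM in UUO kidneys. Again the groups were apart, and the log2 fold change was 3.72 (limma SE 0.52, adjusted p = 0.000712). UUO rat 3, with the most Jchain, also had the highest T cell marker sum of the group, and without it the log2 fold change was 3.23.

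Mzb1, a chaperone of the endoplasmic reticulum that helps assemble and secrete antibody, did not pass the test in either model. It was at 0.56, 1.699 and 1.47 FPKM in control rats and 0.82, 0.72 and 1.18 FPKM in adenine rats, and all adenine values lay within the control range. The log2 fold change was −0.32 (95% interval −1.34 to 0.70, limma adjusted p = 0.537). Sham rats had 1.98, 0.58 and 0.60 FPKM and UUO rats had 1.02, 0.68 and 1.58 FPKM. Here too the UUO values lay within the sham range, and the log2 fold change was 0.19 (95% interval −1.06 to 1.44, limma adjusted p = 0.761). Mzb1 and Jchain, both products of antibody-secreting cells, thus had different changes in the same kidneys.

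RefSeq promoter sequences (GRCr8) were at hand for only 3 of the 9 genes, and the 250 bases before the start are shown for each of these 3. Jchain and Cd22 were higher in both models, and Cd79a is the subunit measured in 1 table only. The build used for the deposited tables is not given in the sources used here. The windows are chr1:89621210-89621459 on the plus strand for Cd79a, chr1:95259731-95259980 on the minus strand for Cd22, where the start used lies inside the annotated gene, and chr14:19822726-19822975 on the plus strand for Jchain. Capitals mark matches, on either strand, to the letters searched.
Cd79a: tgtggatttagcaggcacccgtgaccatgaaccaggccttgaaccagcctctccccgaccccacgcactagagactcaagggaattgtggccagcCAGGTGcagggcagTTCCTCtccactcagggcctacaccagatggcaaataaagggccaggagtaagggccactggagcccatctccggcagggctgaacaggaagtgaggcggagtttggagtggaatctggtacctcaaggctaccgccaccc
Cd22: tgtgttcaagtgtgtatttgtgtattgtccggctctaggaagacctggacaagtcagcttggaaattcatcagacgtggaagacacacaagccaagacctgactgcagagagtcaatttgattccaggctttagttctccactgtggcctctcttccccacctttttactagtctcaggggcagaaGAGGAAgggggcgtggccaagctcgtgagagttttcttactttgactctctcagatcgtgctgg
Jchain: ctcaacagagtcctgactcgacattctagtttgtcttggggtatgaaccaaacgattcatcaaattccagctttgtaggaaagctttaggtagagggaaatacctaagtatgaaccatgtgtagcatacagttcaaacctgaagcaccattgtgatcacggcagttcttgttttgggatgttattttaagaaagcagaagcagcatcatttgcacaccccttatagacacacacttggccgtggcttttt

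The letters GAGGAA, the core bound by PU.1, were found in Cd79a beginning at position −141 (as the reverse complement TTCCTC) and in Cd22 beginning at −64, counted from the start site, and were present in 23.3% of 33469 RefSeq promoters of the same length. The letters CAGGTG, a form of the site of E2A, were found in Cd79a only, at −155, and in 15.9% of all promoters. The octamer ATGCAAAT, used by the partners of Pou2af1, was in none of the 3 windows and in 1.56% of all promoters. The EBF1 letters CCCNNGGG were likewise in none of the 3 and in 10.8% of all. The matches of different motifs did not overlap, and a match is a description of letters only.

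Whether a gene responded more in one model than in the other was asked by a test of the difference between the 2 log2 fold changes. Of the 13486 symbols tested in both models, 2.88% differed with an adjusted p under 0.05 and by at least 2, and none of the 4 genes tested in both (Jchain, Cd22, Mzb1 and Pou2af1) was among them. For Jchain the UUO change exceeded the adenine change by 0.23 (95% interval −1.25 to 1.71). For Cd22 the UUO excess was 0.92 (95% interval −0.14 to 1.98, adjusted p = 0.180 on limma estimates). The intervals of Pou2af1 (−0.80 to 1.79) and Mzb1 (−0.94 to 1.96) also span sizeable differences either way.

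Without the minimum FPKM, where the 8 genes listed in both tables could be fitted, Blk and Ms4a1 differed between the models. The background there was 3.14% of 19066 symbols. Blk was higher by 2.78 (SE 0.44, adjusted p = 0.00237 on limma estimates) and Ms4a1 by 2.30 (SE 0.44, adjusted p = 0.00535 on limma estimates) in the UUO change than in the adenine change. The difference was 1.33 for Cd79b (95% interval −0.14 to 2.81, adjusted p = 0.193 on limma estimates), which did not pass. None is given for Pax5, whose sham values are all the lowest of the table. With a pseudocount of 1 the differences of Blk and Ms4a1 were 0.92 and 1.05, below the size of 2, with adjusted p of 0.000452 and 0.00220 on limma estimates.

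Other leukocytes rose in the same kidneys, and the members were therefore also set against Ptprc, which encodes CD45 on nearly all leukocytes. Ptprc had a log2 fold change of 3.34 in adenine and 2.73 in UUO kidneys. Relative to Ptprc, 8 of the 9 members were lower in all adenine rats than in all control rats, and Jchain overlapped. The same was true of 92.4% of all entries in that table, so the count is close to that of genes in general. The median difference over the 9 was −2.19 on the log2 scale. In UUO kidneys Ms4a1 (by 0.71) and Jchain (by 1.00) were higher relative to Ptprc in every rat than in the sham rats, Pax5, Mzb1 and Pou2af1 were lower in every rat, and Cd79b, Cd22 and Blk overlapped. Of all entries there 0.622% were higher than in every sham rat and 88.6% were lower. The median difference over the 8 was −0.05. Relative to the T cell gene Cd3e, 3 members were lower in every adenine rat and 6 overlapped, where 74.4% of all entries were lower. With UUO, 3 were lower in every rat and 5 overlapped, where 92.3% of all entries were lower. These ratios were not tested, and the pseudocount raises the ratio of a member near 0 most in kidneys with little Ptprc.

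**Figure D3:**
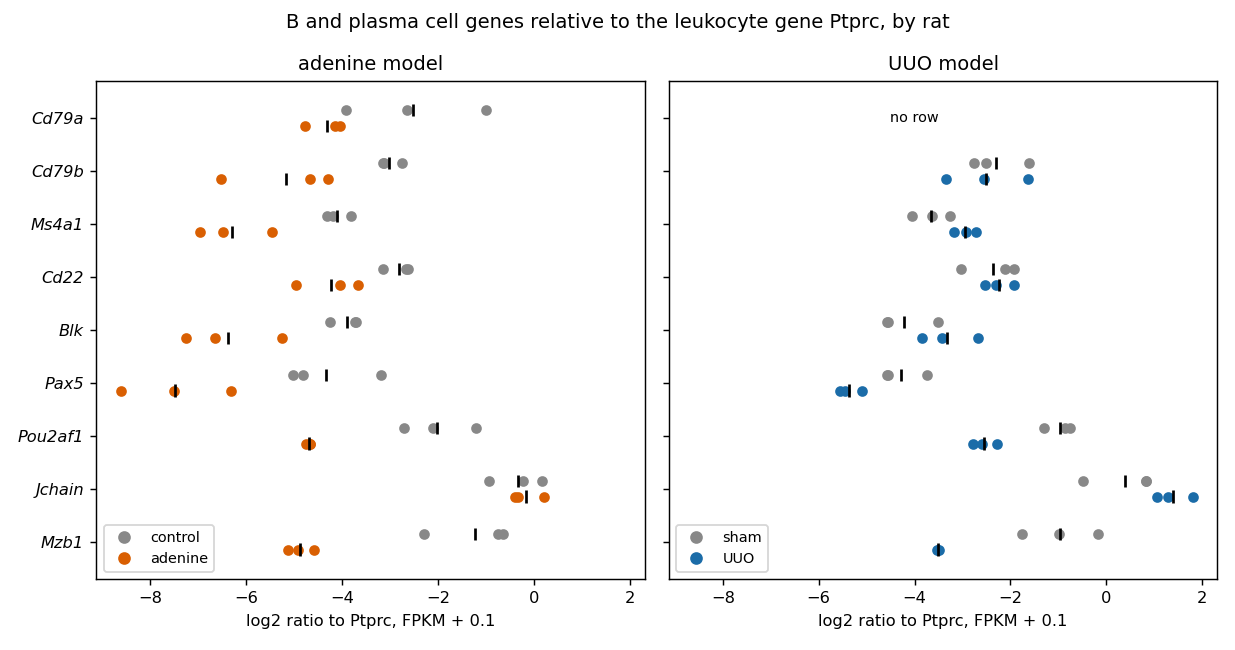
log2 ratio of each member to Ptprc in every rat, computed on FPKM + 0.1, with control or sham in grey, the injured group in colour and a black tick at each mean. In the adenine panel 8 of 9 members sit to the left of control and Jchain overlaps. In the UUO panel Ms4a1 and Jchain sit to the right of sham.

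Antibody heavy chain messages were also measured. Ighm, the constant region of IgM, was at 2.00, 2.32 and 2.65 FPKM in control rats and 11.04, 9.04 and 29.9 FPKM in adenine rats, and its log2 fold change was 2.59 (limma adjusted p = 0.00238). Sham rats had 2.01, 2.33 and 2.27 FPKM and UUO rats 17.6, 12.4 and 23.2 FPKM, a log2 fold change of 2.91 (limma adjusted p = 7.23e-05). As with Jchain, adenine rat 3 and UUO rat 3 were the highest of their groups. Igh-6, a further IgM heavy chain entry named after its values were seen, was also a DEG in both models, at 2.60 and 3.07, although without the minimum its UUO call was lost (limma adjusted p = 0.0799). The 2 entries may share reads. Ighg1, of IgG1 and named in the same way, was under the minimum in both tables. Control rats had 0.057, 0.087 and 0 FPKM and adenine rats 5.02, 0.22 and 0.68 FPKM, without overlap. All 3 sham rats were listed at the lowest value of 0.0001 FPKM, and UUO rats had 0.45, 0.15 and 0.93 FPKM. Without the minimum the limma adjusted p was 0.0551 with adenine and 0.0343 with UUO, where no fold change is given.

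A wider list of 18 B cell surface and receptor signalling genes held 11 upregulated DEGs of 13 tested with adenine and 9 of 13 with UUO, beside 10.7% and 13.2% of all tested genes. Fcer2, Fcrla and Prkcb reached the minimum through the injured rats alone in both models, so that genes like these had to differ to be tested. Without the minimum the counts were again 11 and 9, of 17 listed in each model, against 8.05% and 6.14% of all entries. The median log2 fold change over the tested genes was 3.13 and 2.48, against 0.30 and 0.62 for all tested genes. In adenine kidneys the leaders were Fcer2, encoding the low-affinity IgE receptor CD23 (4.23), the protein kinase gene Prkcb (4.10), the tyrosine kinase gene Btk (3.96), Cd180 (3.75), Fcrla (3.73) and Syk (3.67). With UUO these genes stood at 4.84 (Fcer2), 3.23 (Fcrla), 2.63 (Btk), 2.48 (Cd180), 2.34 (Prkcb) and 1.92 (Syk, no DEG there). Many of these genes, among them Btk, Syk, Lyn, Cd37, Cd180 and Pik3ap1, are also used by macrophages, whose own markers were upregulated DEGs in 9 of 9 and 8 of 9 genes, and the part of those cells in the list was not tested.

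Of the B cell transcription factors, 1 of 6 tested was an upregulated DEG with adenine and 5 of 7 were with UUO, beside 10.7% and 13.2% of all tested genes. Ikzf3 was under the minimum in adenine kidneys and was a second DEG there in the fit without it (2.38, limma adjusted p = 0.00286). Spib had log2 fold changes of 1.92 and 4.13, and the UUO change exceeded the adenine change by 2.20 (adjusted p = 0.00939 on limma estimates). Spib reached the minimum through the injured rats alone in both models, as did Ikzf3 and Bach2 with UUO. Without the minimum the adjusted p of the Spib difference was 0.0197 on limma estimates. The UUO count was then again 5, against 6.14% of all entries. Irf8, shared with macrophages and dendritic cells, was the adenine DEG at 3.13 and stood at 3.47 in UUO, where Ikzf3 (2.81), Pou2f2, the octamer-binding partner of Pou2af1 (2.21), and Bach2 (2.06) were the others. Spib and Blk are also used by plasmacytoid dendritic cells. Spib itself is on the marker list of those cells. Without it 3 of 4 tested markers were upregulated DEGs in UUO (Irf7, Bst2 and Runx2) and 1 of 4 in adenine (Runx2), and Tcf4 was no DEG in either model. Siglech, which defines them, was at the lowest value in all control and sham rats at 0, 0.070 and 0.27 FPKM in adenine rats and at 0.60, 0.70 and 0.25 FPKM in UUO rats. The part of those cells in the Blk and Spib values was not tested.

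The plasma cell and antibody secretion genes held 4 upregulated DEGs of 12 tested in adenine and 3 of 12 in UUO, beside 10.7% and 13.2% of all tested genes, with medians of 0.63 and 0.98 beside 0.30 and 0.62. Of these, 3 were lower in every adenine rat and passed the adjusted p without reaching the fold threshold, and they were named after their values were seen. They were Derl3, of endoplasmic reticulum degradation (−1.33, limma adjusted p = 0.0236), Creld2, of the unfolded protein response (−0.73, limma adjusted p = 0.0388), and the kinase gene Pim2 (−0.88, limma adjusted p = 0.00371). Derl3 was not listed for the sham and UUO rats. Pim2 was lower with UUO as well, at −0.69 (limma adjusted p = 0.00908). Creld2 stood at 0.40 there (limma adjusted p = 0.00295), less than the median of all tested genes, and at −0.20 with median-of-ratios scaling. Prdm1, the transcription factor that drives plasma cell differentiation, had log2 fold changes of 2.26 (a DEG) and 1.93, and in the adenine model it reached the minimum through the adenine rats alone. Irf4, which acts with it, had 2.49 (a DEG) and 0.92. Xbp1, which expands the secretory apparatus and is active in many secretory and epithelial cells, had 0.64 (limma adjusted p = 0.0534) and 0.97. Sdc1 (4.33 and 3.69) and Cd38 (4.13 and 3.54) were DEGs in both models and are expressed outside the B lineage, Sdc1 in epithelium and Cd38 in other leukocytes. Slamf7, found on plasma cells and on NK cells, was a DEG in UUO at 3.22. Tnfrsf17, which encodes the plasma cell survival receptor BCMA and was named after its values were seen, stayed under the minimum in both tables.

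Signals for B cell survival, help and recruitment held 6 upregulated DEGs of 11 tested in adenine and 9 of 13 in UUO, beside 10.7% and 13.2% of all tested genes. Without the minimum the counts were 5 of 18 listed in adenine and 11 of 19 in UUO, against 8.05% and 6.14% of all entries. Tnfsf13b, encoding the survival factor BAFF, had log2 fold changes of 2.32 and 2.88 and was a DEG in both. Its receptor gene Tnfrsf13c, named, like Cxcr5, after the values were seen, was under the minimum in both models. Control rats had 0, 0.060 and 0 FPKM and adenine rats 0.044, 0.24 and 0.091 FPKM, with overlap. Sham rats had 0.029, 0.070 and 0.0001 FPKM and UUO rats 0.89, 0.33 and 0.75 FPKM, without overlap. Without the minimum Tnfrsf13c was a DEG in UUO (2.45, limma adjusted p = 0.0121). The difference between the models was 1.60 and did not pass (adjusted p = 0.0680 on limma estimates). Cxcl13, the chemokine that draws B cells into follicles, was at 2.23, 3.19 and 11.3 FPKM in control rats and 9.12, 29.0 and 52.1 FPKM in adenine rats. Control rat 3 lay above adenine rat 1, and the log2 fold change was 2.44 (limma SE 0.79, adjusted p = 0.0332, and 0.0514 without the minimum). For Cxcl13 the sham rats had 11.4, 2.45 and 4.79 FPKM and the UUO rats 18.4, 54.1 and 47.9 FPKM, without overlap, and the log2 fold change was 2.80. Its receptor gene Cxcr5 was at most 0.62 FPKM in any rat.

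Cxcl12, a chemokine that retains B lineage cells and was named after its values were seen, was lower in every adenine rat, at −1.37 (limma adjusted p = 0.00803), and stood at −0.13 with UUO. The list held further DEGs. Cxcr4 (2.91 and 3.403), Cd40, which receives T cell help (2.19 and 2.80), and Ccl21, which guides lymphocytes to lymphoid tissue (2.14 and 3.51), were DEGs in both models. Ccr7, the receptor for Ccl21, was a DEG in UUO at 3.87, where it reached the minimum through the UUO rats alone. It was under the minimum in adenine kidneys, and without the minimum its UUO change exceeded its adenine change by 2.74 (adjusted p = 0.0177 on limma estimates). The T cell markers as a list were upregulated DEGs in 4 of 10 genes in adenine and 9 of 10 in UUO, beside 10.7% and 13.2% of all tested genes. In both models all 10 were higher in every injured rat than in every reference rat, against 35.7% and 31.1% of all entries. Cd3e had log2 fold changes of 2.23 and 3.37.

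Among the antibody transport and Fc receptor genes, 3 of 6 were upregulated DEGs in adenine and 4 of 6 in UUO, beside the same 10.7% and 13.2%. Fcgr2b, the inhibitory IgG receptor of B cells and macrophages, had the largest change of the list, 7.30 in adenine and 4.56 in UUO. Here the UUO change was smaller by 2.75 (adjusted p = 0.00384 on limma estimates). Fcgr2b reached the minimum through the injured rats alone in both models, and without the minimum the adjusted p of this difference was 0.0110 on limma estimates. Fcgr1a (4.24 and 2.94) and Fcer1g (3.30 and 2.78), both macrophage genes, were DEGs in both. Pigr, also named after its values were seen, which carries polymers held by the J chain across epithelium, had log2 fold changes of 1.16 and 0.50 and was no DEG.

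**Figure D4:**
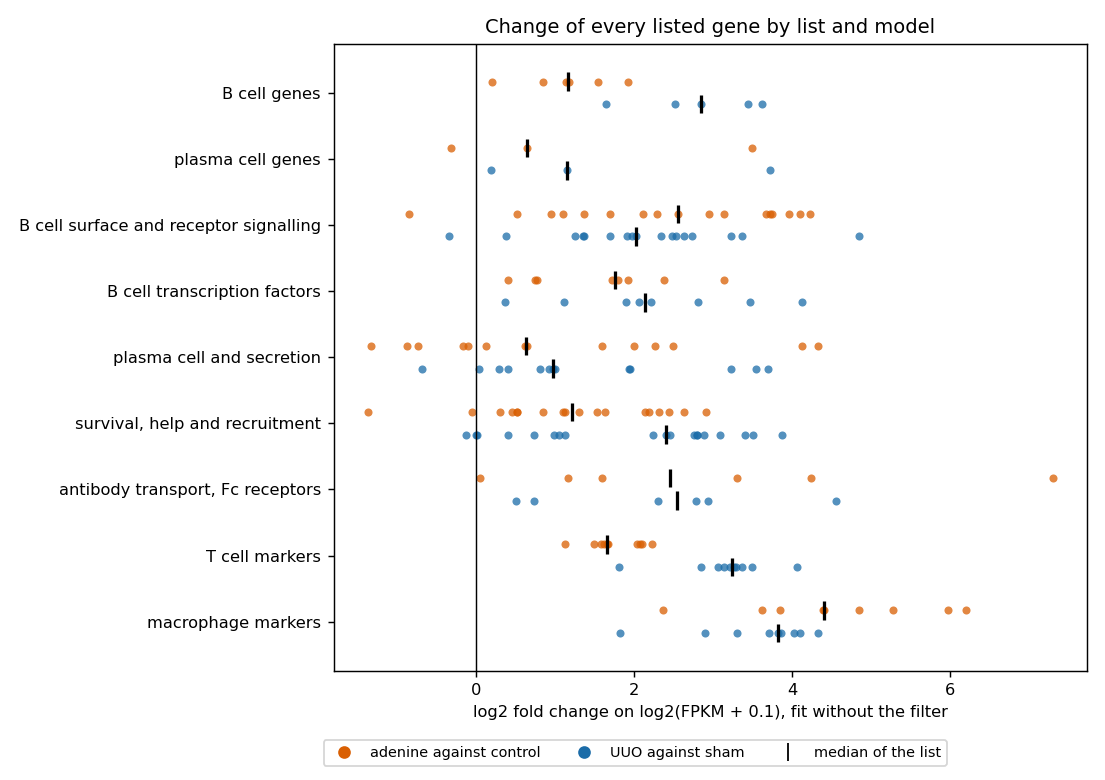
log2 fold change of every listed gene, from the fit without the minimum FPKM, adenine in orange and UUO in blue, with a black bar at each list's median. For genes at the lowest value in the reference group, such as Pax5 with UUO, the pseudocount sets the position. The B cell genes have a median of 1.16 in adenine and 2.84 in UUO. Macrophage markers reach higher medians in both models, 4.40 and 3.82.

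The genes whose deviations from their group means were most like those of the members were looked up across the 12 libraries, among 13482 genes. For the mean of the tested B cell members they were Mcoln3 (Pearson r = 0.98), Rnf168 (0.94), Arl11 (0.93), Elmo1 (0.93) and Rplp2 (0.92). For the mean of the 3 plasma cell genes they were Pdcd6ip (0.97), Zrsr1 (0.97), Impact (0.96), Uba3 (0.96) and Ermard (0.96). The libraries share their tables, 12 points were searched over many genes, and the members contributing differed between the tables for the B cell mean, so the values are descriptions only. None of the 10 is a B lineage marker in the lists used here.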

How the data were processed

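Poly(A) RNA from the kidneys of 12 rats was sequenced as stranded paired-end libraries. The authors deposited FPKM in 2 tables, made separately per model; the submitters' processing notes name cutadapt 1.9, HISAT2 2.0.4 and StringTie 1.3.4d, and the genome build is not given in the sources used here. FPKM hold no read counts, and whole reads could not be recovered from low values, so depth is unknown and no count test was run. FPKM rise for all genes when a few abundant transcripts fall.

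Here log2(FPKM + 0.1) was fitted per table with limma 3.58.1 (R 4.3.3; trend, Benjamini-Hochberg over all tested genes). The filter was 0.5 FPKM in 3 of 6 libraries. Differences between models used the root of the summed squared SE and the summed degrees of freedom. All members are named, with the DEGs of each further list (at most 6, by size) and Tnfsf13b, Cxcl13, Xbp1, Prdm1, Irf4, Ptprc and Cd3e; 1 further gene of this rule is not reported here. The fit was tested on simulated data. Other pseudocounts, filters, scalings, a replicate block and single libraries left out were tried. Members and lists were chosen with earlier results of these data known.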

Additional observations from a re-analysis of the deposited data

Results flagged for a closer look

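The changes of Blk and Ms4a1 differed between the models by the test of the difference itself, in the fit without the minimum FPKM. The UUO log2 fold change exceeded the adenine one by 2.78 for Blk and by 2.30 for Ms4a1. Over 15 further settings of that fit, 14 called both differences, with a range of 0.92 to 5.11 for Blk and 1.05 to 2.79 for Ms4a1, and with a pseudocount of 1 both fell below the size of 2. The Blk values in 2 sham libraries are the lowest value of their table.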

How the results depend on the processing

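In the adenine model the count of DEGs among the members went from 1 to 2, with Cd22 beside Jchain, with a pseudocount of 0.01, with FPKM rescaled to the same sum and with no fold threshold, and was 1 to 2 with single libraries left out (Cd22 joined without control 1 or adenine 3, Cd79a without control 2). In the UUO model the 5 DEGs became 1 (Jchain) with a pseudocount of 1 and 3 (Blk, Jchain and Ms4a1) with quantile normalization. With a pseudocount of 1 the upregulated DEGs over all genes fell as well, from 1980 to 1038 of 15043. With median-of-ratios scaling, which brings the median change of all genes to 0.014 and 0.030, Cd79b (1.99) left and 4 remained. Genes whose change differed between the models were 0, and 2 without the filter. Among the members, reversed signs were all of values that passed no test. They were Pou2af1 in adenine with quantile normalization (−0.032) and Pax5 in adenine over single libraries left out without the filter (−0.099 to 0.71). Mzb1 in UUO also reversed, with median-of-ratios scaling (−0.36), with quantile normalization (−0.75) and over single libraries left out (−0.097 to 0.72). A replicate block gave 1, 5 and 0 members, and 2352 against 2360 DEGs over all genes in adenine and 2609 against 2613 in UUO. Same-numbered rats had correlations of deviations between −0.12 and 0.11 and share only a number, although in UUO each library correlated best with its own number. The cause of these changes was not tested. Depth, which FPKM do not show, limits the members under 0.5 FPKM.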
